A study of Mus musculus with 2 samples.

Results

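Metallothioneins and zinc transporters were followed by RNA sequencing of 2 libraries of primary mouse chondrocytes, the resident cells of cartilage. Both groups were wild type (WT) cells grown in DMEM with fetal bovine serum and antibiotics. Both were kept for 3 days, 1 with phosphate-buffered saline (PBS) as the control and 1 with recombinant mouse Sparcl1 protein at 50 ng/ml. Sparcl1 is a secreted matricellular protein. How many animals or cultures gave each library is not given in the sources used here, and neither is the age of the animals. The set holds 10 of the 21983 genes in the count table: the metallothionein genes Mt1 and Mt2, the metal-sensing factor gene Mtf1, the importer genes Slc39a4, Slc39a8, Slc39a10 and Slc39a14, and the exporter genes Slc30a1, Slc30a4 and Slc30a5. All 10 were found by symbol. They were chosen by name with the counts of this same comparison already known, so their ratios describe the libraries and test nothing.

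Zinc is held at a very low free level inside cells. Proteins of the ZIP family (Slc39a genes) bring zinc into the cytosol, those of the ZnT family (Slc30a genes) move it out of the cytosol into organelles or out of the cell, and metallothioneins, small proteins rich in cysteine, bind it. When free zinc rises, the transcription factor MTF1 binds metal response elements and switches on metallothionein genes and the exporter gene Slc30a1. Metallothionein genes also answer to glucocorticoids, inflammatory cytokines and oxidative stress. In osteoarthritic cartilage the importer ZIP8, encoded by Slc39a8, is known to bring zinc into chondrocytes, where MTF1 then raises genes of matrix-degrading enzymes.

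The control library held 29858851 counts and the Sparcl1 library 26871933. Levels are CPM (counts per 1000000 counts of the library) at library sizes adjusted by trimmed means of M-values (TMM), and every ratio is Sparcl1 over PBS. With 1 library per group there was no spread between cultures to set a ratio against. The 95% intervals are exact Clopper-Pearson intervals on the Sparcl1 library's part of a gene's counts, and they cover counting error only. A gene was called higher or lower where its summed counts reached 20, its ratio reached 2-fold (log2 of 1) and its interval left out 0. By that rule 0.954% of 13317 genes tested were higher and 0.946% were lower.

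Mt1 and Mt2 both had a higher CPM in the Sparcl1 library, and Mt2 passed the 2-fold size. Mt2 had 1267 counts with PBS and 2474 with Sparcl1, or 42.9 and 91.0 CPM. Mt1 had 2065 and 2940 counts, or 70.0 and 108 CPM. Mt2 thus stood 2.12-fold higher (log2 1.08, interval 0.98 to 1.18) and was called, although the lower end of its interval lay just under the 2-fold size. Mt1 stood 1.54-fold higher (log2 0.63, 0.55 to 0.71), short of that size. Together the pair went from 113 to 199 CPM, a log2 ratio of 0.82 (0.75 to 0.88). Mt2 gave 38.0% of their joint counts with PBS (exact interval 36.4% to 39.7%) and 45.7% with Sparcl1 (44.4% to 47.0%). These intervals cover counting error only, and whether the share differs between cultures was not tested. Mt3 and Mt4, the metallothionein genes known for brain and for stratified epithelia, were listed at 0 in both libraries.

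The 4 metallothionein genes lie next to each other on chromosome 8 of the GRCm38 (mm10) assembly. Mt2 spans 94172664 to 94173568 and Mt1 spans 94179082 to 94180327, both on the plus strand and 5513 bases apart. Their coding parts are shown because they carry both the metal-binding feature of the family and the likeness that could mix up reads of the pair. Capitals mark codons for cysteine, the residue that holds zinc, and the sequences were taken from GENCODE M21 transcripts.
Mt1: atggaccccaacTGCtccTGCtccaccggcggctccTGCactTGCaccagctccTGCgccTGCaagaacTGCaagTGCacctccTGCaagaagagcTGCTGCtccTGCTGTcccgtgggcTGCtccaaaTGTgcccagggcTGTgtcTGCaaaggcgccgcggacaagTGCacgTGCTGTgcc
Mt2: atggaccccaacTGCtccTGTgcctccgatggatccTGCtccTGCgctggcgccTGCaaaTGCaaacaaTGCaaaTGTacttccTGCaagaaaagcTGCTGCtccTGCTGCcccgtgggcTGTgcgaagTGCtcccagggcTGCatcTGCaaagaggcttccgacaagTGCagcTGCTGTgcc
Each coding part has 61 codons, of which 20 are for cysteine, and all 20 fall at the same places in both genes. The coding parts were identical at 145 of 183 bases (79.2%). The longest exact run that the annotated Mt1 and Mt2 transcripts shared was 20 bases, and 1 other annotated gene, Pip5k1a, shared any 30-base word with the pair (4 words with Mt2). Of the exon bases of Mt2, 432 also belong to Gm45774, an antisense gene on the opposite strand that is not a row of the table used here. Whether counting kept strand is not given in the sources used here, and without strand such reads cannot be told apart.

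**Figure D1:**
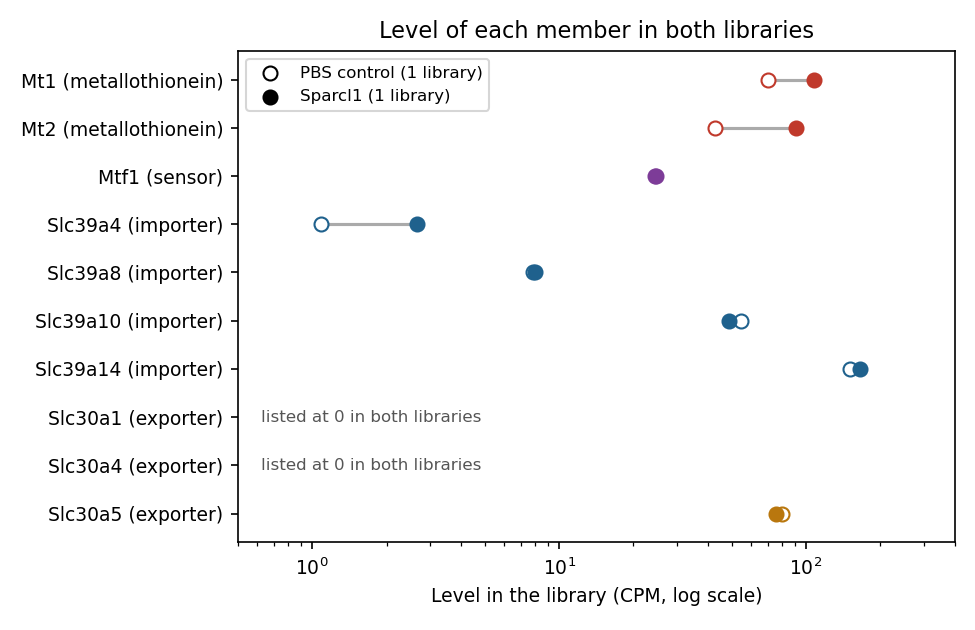
Level of each member in the control library (open circles) and the Sparcl1 library (filled circles) in CPM on a log axis, 1 library per group. Mt1, Mt2 and Slc39a4 sit farther right with Sparcl1, the circles of Mtf1 and Slc39a8 overlap, and Slc30a1 and Slc30a4 were listed at 0 in both libraries.

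Since MTF1 acts through metal response elements, the promoter windows of the metallothionein pair are shown, chosen with the pair's ratios known. Ratios above 1 were not particular to the pair, as 6 of the 8 members tested had them. The windows come from RefSeq on GRCm38.p6 and run from 250 bases before the RefSeq start site to 50 after it. They lie at chr8:94178839-94179138 for Mt1 and chr8:94172368-94172667 for Mt2, both read on the plus strand. Capitals mark the core of the metal response element, searched as TGCACNC and TGCGCNC on both strands. No match overlapped another in these 2 windows.
Mt1: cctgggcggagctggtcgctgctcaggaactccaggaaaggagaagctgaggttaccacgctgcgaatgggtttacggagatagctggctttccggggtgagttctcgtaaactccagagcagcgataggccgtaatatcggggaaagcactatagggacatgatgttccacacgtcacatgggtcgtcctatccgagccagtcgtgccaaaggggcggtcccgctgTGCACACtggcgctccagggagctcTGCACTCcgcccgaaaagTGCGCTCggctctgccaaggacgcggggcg
Mt2: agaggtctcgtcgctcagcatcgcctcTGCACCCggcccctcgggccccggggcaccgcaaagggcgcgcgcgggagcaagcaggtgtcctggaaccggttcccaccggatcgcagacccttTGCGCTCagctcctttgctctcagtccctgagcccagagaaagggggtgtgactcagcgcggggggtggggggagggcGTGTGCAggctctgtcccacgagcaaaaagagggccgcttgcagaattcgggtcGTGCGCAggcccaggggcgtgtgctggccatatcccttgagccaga
The Mt1 window held 3 matches, which began at positions -23, 3 and 21 counted from the start site, where 1 is the first transcribed base. The Mt2 window held 4, at -223, -128, -50 and 5. Among all 32851 promoter windows in the RefSeq table, 25.7% held at least 1 match, 1.97% at least 3 and 0.517% at least 4. In these shares, matches that overlap each other were each counted. Annotated starts differ: the GENCODE transcript of Mt1 with the coding part above begins within this window, which holds 57 of its bases, while other Mt1 transcripts begin 72 and 102 bases past the window's end. The transcript of Mt2 with the coding part above has only 4 bases inside its window, at the end, so that all 4 printed matches lie upstream of it, and another Mt2 transcript begins 192 bases past the end. Elements outside these windows were not searched.

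Windows of 8 of the 10 members were searched, all but Slc39a4 and Slc39a14. Slc30a1, the classic zinc-induced exporter gene, held 2 matches and Slc30a4 held 3. Slc30a5 held 1 match, as did 1 of the 2 windows of Slc39a8, while Mtf1 and both windows of Slc39a10 held none. A match is a run of letters and does not show binding.

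**Figure D2:**
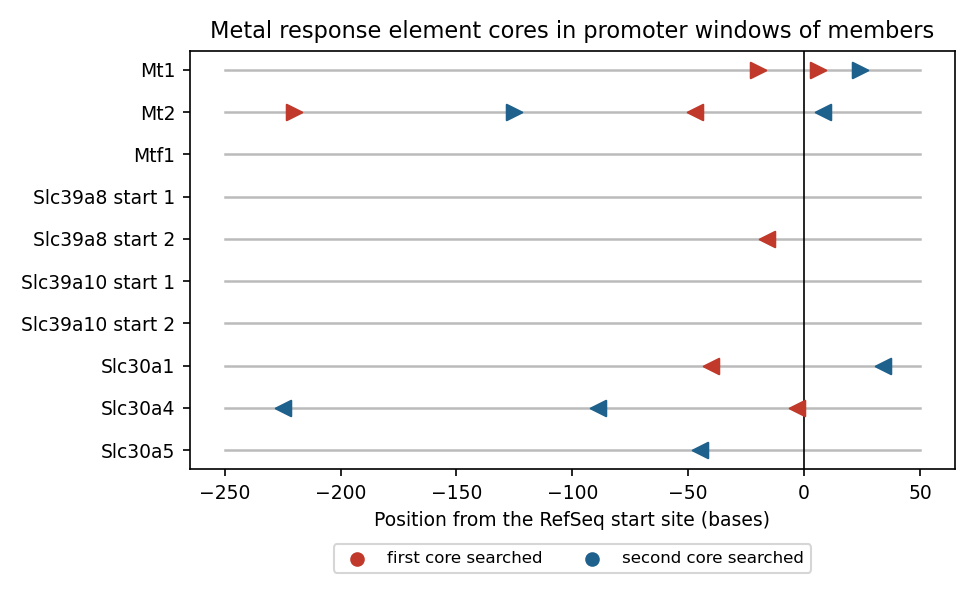
Matches to the metal response element core in the promoter windows of 8 members, by position from the RefSeq start site in bases. Arrowheads point right for matches on the gene's strand and left for the opposite strand, and colours separate the 2 cores searched. Mt2 has 4 matches spread over its window, and Mt1 has 3 close to the start site.

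Mtf1, which encodes the metal sensor itself, was nearly level. It had 721 counts with PBS and 673 with Sparcl1, or 24.4 and 24.7 CPM (log2 0.02, interval -0.14 to 0.17). Any difference of Mtf1 message was below what counting error could resolve at this depth. MTF1 is known to be switched on by zinc binding and by moving into the nucleus, which counts of its message do not measure. Mtf2, a gene of similar name, was at -0.01 (482 and 441 counts), and whether it takes part in metal sensing was not tested. The gene of the zinc-sensing receptor, Gpr39, was at -0.41 from 23 and 16 counts with an interval of -1.42 to 0.58. Neither was called. Of these 3 genes 1 had a ratio above 1, and 2 had with total counts as library sizes. Mtf1 lies on chromosome 4 (124802104 to 124849800), and 721 of its exon bases overlap 1110065P20Rik, a gene on the opposite strand that is also in the table.

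Among the 4 importer genes of the set, Slc39a4 alone was called. This gene encodes ZIP4, the zinc importer of the intestine whose loss causes acrodermatitis enteropathica in people. It had 32 counts with PBS and 72 with Sparcl1, or 1.08 and 2.65 CPM. The ratio was 2.44-fold (log2 1.29), and at this low count its interval ran from 0.67 to 1.94. Slc39a4 lies on chromosome 15 (76612383 to 76617384).

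Slc39a8, the ZIP8 gene of the cartilage pathway, was level at a modest count. It had 231 counts with PBS and 218 with Sparcl1, or 7.83 and 8.02 CPM (log2 0.03, interval -0.24 to 0.31). The upper bound of that interval corresponds to 1.24-fold, and a smaller difference was not detectable at this depth. Slc39a8 lies on chromosome 3 (135825279 to 135888572).

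Slc39a14 encodes ZIP14, an importer of zinc, iron and manganese that is known to rise with inflammatory signals. It was the member with the most counts, 4432 with PBS and 4512 with Sparcl1, or 150 and 166 CPM. Its ratio was slightly above 1 (log2 0.14, interval 0.08 to 0.20) and was not called. Slc39a10 encodes ZIP10, whose gene MTF1 is known to repress when zinc is plentiful. It had 1610 and 1323 counts, or 54.6 and 48.6 CPM, with a ratio slightly below 1 (log2 -0.17, -0.27 to -0.06) that was not called. Slc39a14 lies on chromosome 14 (70303469 to 70351425) and Slc39a10 on chromosome 1 (46807544 to 46892852).

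The exporter genes gave a value for 1 of 3 members. Slc30a5 encodes ZnT5, which loads zinc into the early secretory pathway. It had 2355 counts with PBS and 2051 with Sparcl1, or 79.8 and 75.4 CPM (log2 -0.08, interval -0.17 to 0.00), and was not called. Slc30a1, for the exporter of the cell surface, and Slc30a4, known from the lethal milk mouse, were listed at 0 in both libraries. These zeros are not read as absence, because genes that nearly every cell uses were also listed at 0 in both: Atp6v1c1, a subunit of the vacuolar proton pump, and Psmd10, an assembly chaperone of the proteasome. Opposite-strand genes share 468 of the 5244 exon bases of Slc30a1 and 130 of the 5482 of Slc30a4, and the part of such overlaps in the zeros was not tested. No statement about zinc export at the cell surface can be drawn from these 2 genes.

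Of the 10 members, 8 reached the count minimum, and 2 were called higher (Mt2 and Slc39a4) and none lower, beside 0.954% higher and 0.946% lower of all genes tested. These counts carry no weight as evidence, since the members were picked with this comparison known. At a 1.5-fold size in place of 2-fold, 3 members were higher, Mt1 being added, and none lower, against 2.32% and 2.35% of all genes. The median log2 ratio over the 8 was 0.09, beside -0.0019 over all 13317 genes tested. Just inside the 2-fold size stood Mt2 at 1.08, and the nearest member outside it was Mt1 at 0.63. Of 11194 genes whose summed counts reached 200, 11 had a higher ratio than Mt2 and 82 a higher ratio than Mt1, and the middle 95% of these genes lay between -0.42 and 0.42. The remaining members with that depth, Mtf1, Slc39a8, Slc39a10, Slc39a14 and Slc30a5, all lay within that range.

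**Figure D3:**
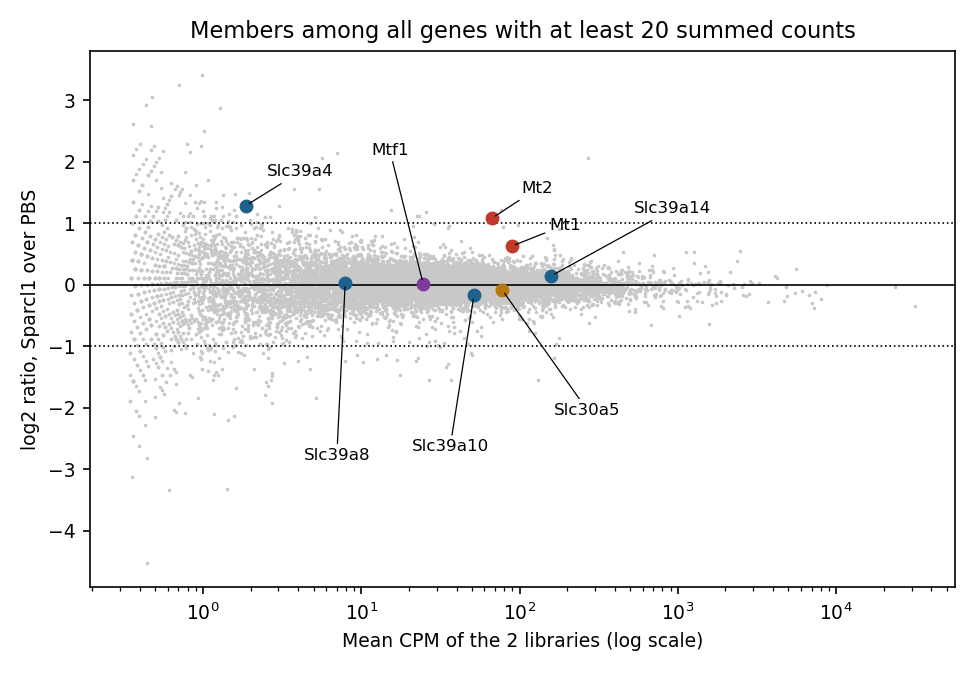
Mean CPM of both libraries (log axis) against the log2 ratio of Sparcl1 over PBS for all 13317 genes tested (grey), with 8 members in colour and dotted lines at the 2-fold size. Mt2 and Mt1 lie above the band of genes of like abundance, Slc39a4 lies where low counts spread the ratios widely, and the other 5 members lie inside the band.

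The rest of the ZIP and ZnT families showed no call in either direction, beside 0.954% higher and 0.946% lower of all genes tested. Of the 19 metallothionein, ZIP and ZnT genes outside the set, 10 were tested, with a median log2 ratio of 0.01 and a range from -0.13 to 0.24. The highest was Slc39a13, for ZIP13, an importer of the secretory pathway known from a connective tissue disorder, with 3475 and 3789 counts (log2 0.24, interval 0.18 to 0.31). Slc39a7, for the ZIP7 protein that releases zinc from the endoplasmic reticulum, and Slc39a1, for a ZIP of the cell surface, had the most counts of their family. Slc39a7 had 7332 and 7202 counts (0.09) and Slc39a1 had 6249 and 6097 (0.08). Slc39a3 (0.07), Slc39a11 (0.09), Slc39a6 (-0.06) and Slc39a9 (-0.12) were also near level. Slc39a2, Slc39a5 and Slc39a12 did not reach 20 summed counts.

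Over the whole ZIP family 8 of 11 tested genes had ratios above 1, and over the ZnT family all 4 tested genes had ratios below 1. Of all 13317 genes tested, 6608 had ratios above 1 and 6709 below. The ZnT values were small: Slc30a9 at -0.07, Slc30a5 at -0.08, Slc30a7 at -0.12 and Slc30a6, the partner of ZnT5, at -0.13. Only the interval of Slc30a7 (-0.21 to -0.02) left out 0. Slc30a2, Slc30a3 and Slc30a10 did not reach 20 summed counts, and Slc30a8, the zinc transporter gene of pancreatic beta cells, was listed at 0.

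**Figure D4:**
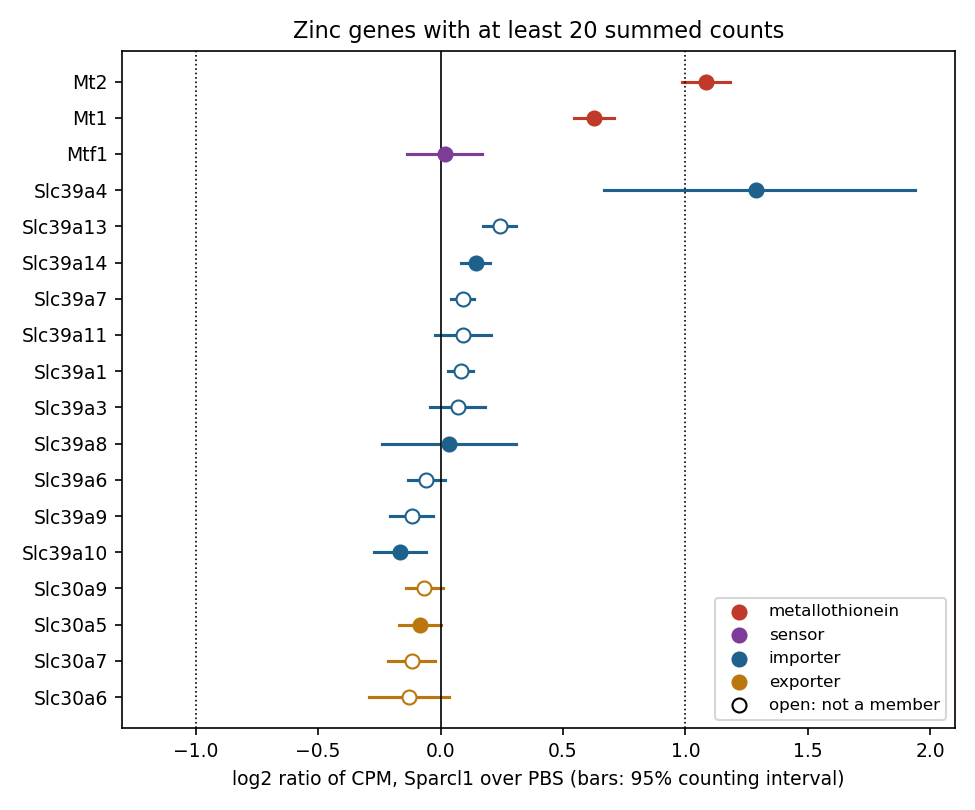
Log2 ratio of CPM, Sparcl1 over PBS, for the 18 metallothionein, Mtf1, ZIP and ZnT genes tested, with 95% counting intervals as bars, members filled and other genes open. Mt2 and Slc39a4 lie past the dotted line of the 2-fold size, Mt1 lies between the lines, and the other 15 genes lie from -0.17 to 0.24.

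Levels can be compared between genes only per length, so counts were divided by the length of each gene's merged exons and scaled to a sum of 1000000 in each library (TPM). Mt2 had the highest level of the set at 290 TPM with PBS and 613 with Sparcl1, followed by Mt1 at 223 and 344. The order of these 2 depends on the length used. By the lengths of the 2 transcripts whose coding parts are shown, 549 bases for Mt1 and 511 for Mt2, Mt1 was the higher in both libraries, at 3761 against 2479 counts per kilobase with PBS and 5355 against 4841 with Sparcl1. Slc39a14 came next at 56.6 and 62.3 TPM, then Slc30a5 at 43.5 and 41.0 and Slc39a10 at 35.6 and 31.6. By the length of the longest transcript in place of merged exons, Slc39a14 stood at 90.0 and 99.1 TPM, and the order of the members was the same. Mtf1 stood at 10.9 and 11.0 TPM, Slc39a8 at 4.06 and 4.15 and Slc39a4 at 1.39 and 3.38. Within the ZIP members the order was thus Slc39a14, Slc39a10, Slc39a8 and Slc39a4 in both libraries, and ZIP8 and ZIP4 messages were rare beside the message of ZIP14. These levels have no spread over cultures to set them against.

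Matrix protease genes known to lie downstream of ZIP8 and MTF1 in cartilage were divided. Of 5 tested, 1 was called higher and none lower, beside 0.954% higher and 0.946% lower of all genes tested. The median log2 ratio of the 5 was 0.04, beside -0.0019 over all genes tested. Mmp3, for stromelysin 1, was the called gene at 104 and 438 CPM (log2 2.07, interval 2.01 to 2.13), and of the 11194 deeper genes only 1 had a higher ratio. Mmp12, the macrophage elastase gene, was at 0.47 (2605 and 3323 counts). The aggrecanase gene Adamts5 (0.04) and the collagenase gene Mmp13 (0.00) were near level. The gelatinase gene Mmp9 had 20 and 17 counts, and its interval of -1.14 to 0.89 around -0.12 was too wide to place it. Of 5 other known MTF1 targets tested none was called, beside 0.954% higher and 0.946% lower of all genes tested. Their median log2 ratio was -0.11. Selenoh, for a selenoprotein, was highest at 0.18, and Gclc, for an enzyme of glutathione synthesis, was at 0.06. Ndrg1, a stress-response gene, was at -0.24, and Pgf, for placental growth factor, was lowest at -0.78 from 26 and 14 counts.

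Metallothionein genes and Slc39a14 are also known to answer to interleukin-6 through STAT3. In the list of acute-phase genes of that route, 10 of 11 tested genes had ratios above 1, with a median log2 ratio of 0.39, beside 6608 of 13317 and a median of -0.0019 over all genes tested. In this list 1 gene was called higher, beside 0.954% of all genes. That gene was Il6 itself, at 25 and 64 counts (log2 1.47, interval 0.79 to 2.20). Hp, for haptoglobin, was at 0.60 with 1133 and 1587 counts, and Socs3, the feedback inhibitor of STAT3, at 0.39 with 2336 and 2820. These 2 were named after their values were seen. The genes of the shared receptor chain (Il6st) and of STAT3 (Stat3) had the most counts and were both at 0.05, and Il6ra was lowest at -0.07.

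Glucocorticoid-induced genes were mixed. Of 8 tested none was called higher and 1 was called lower, beside 0.954% higher and 0.946% lower of all genes tested. The median log2 ratio of the 8 was 0.14, beside -0.0019 over all genes tested. Dusp1, a phosphatase gene, was highest at 0.43 and Sgk1, a kinase gene, was at 0.35 with 14766 and 17407 counts. Zbtb16 was the lower gene, at 39 and 16 counts (log2 -1.17, interval -2.11 to -0.30). Fkbp5 at 0.39 and Tsc22d3 at -0.42, named after their values were seen, are both classic glucocorticoid targets and lay on opposite sides of 0.

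**Figure D5:**
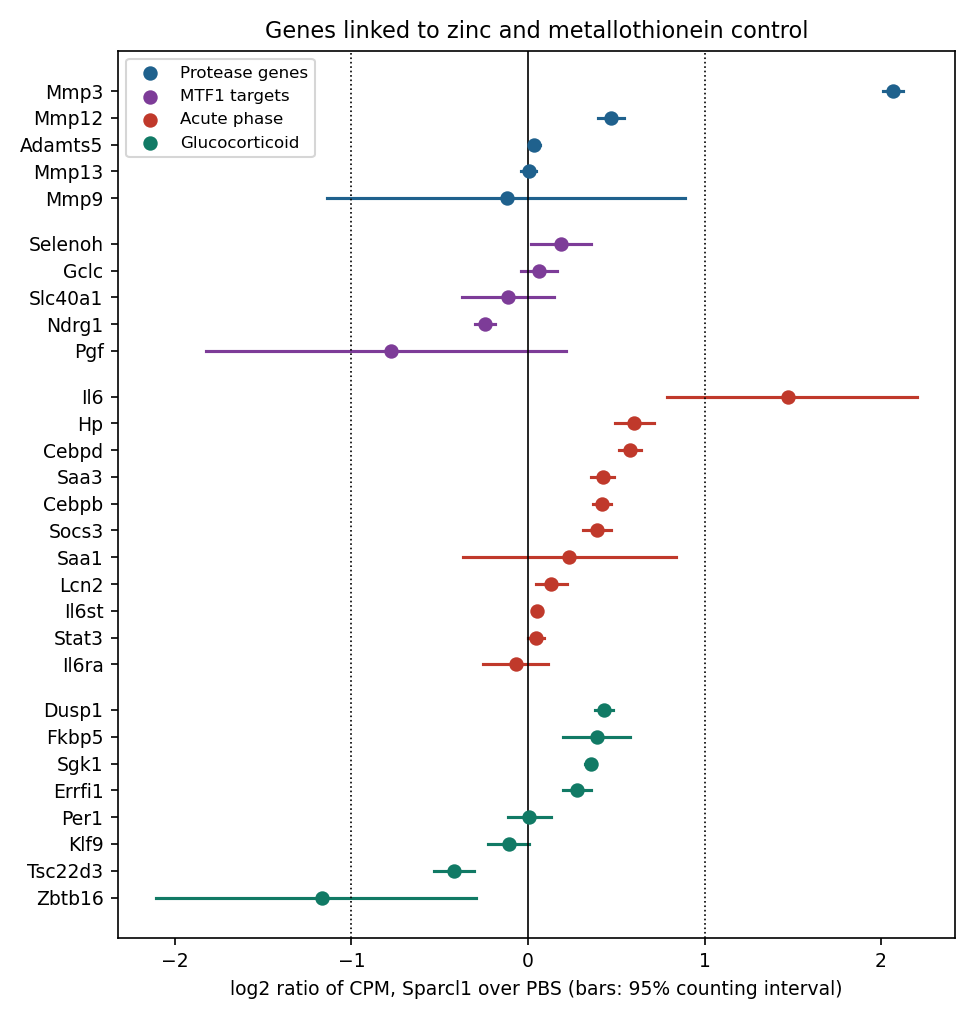
Log2 ratio of CPM, Sparcl1 over PBS, with 95% counting intervals for genes linked by known biology to zinc or to metallothionein control, in 4 lists, for genes that reached 20 summed counts. Mmp3 and Il6 lie above the upper dotted line of the 2-fold size and Zbtb16 below the lower line, while the MTF1 targets spread on both sides of 0.

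Chondrocyte markers were all present: 10 of 10 were detected, with Col2a1 at 254556 and 199410 counts, and their summed level was 13814 CPM with PBS and 12091 with Sparcl1 (median log2 -0.30). Markers of macrophages, cells that also make metallothioneins, were detected for 12 of 12 genes, with summed levels of 2254 and 2581 CPM (median 0.06). The lysozyme gene Lyz2 alone gave 1327 and 1640 CPM of these sums (log2 0.31). Also above 0 were Itgam at 0.45, Mrc1 at 0.33, Cd14 at 0.22, Tyrobp at 0.15, C1qa at 0.09 and Cd68 at 0.03. Below 0 were Adgre1 at -0.002, Csf1r at -0.05, Ptprc at -0.19, Aif1 at -0.32 and Fcgr1 at -0.61. Fibroblast and synovial markers stood at 11265 and 9642 CPM in sum (7 of 7 detected, median -0.07) and osteoblast markers at 8413 and 6448 (6 of 6, median -0.46). Collagen genes gave most of both sums. Col1a2 gave 7779 and 6328 CPM (log2 -0.30) and Col3a1 2878 and 2548 CPM (-0.18) of the fibroblast and synovial sums. In that list Prg4 was at 0.39, Pdgfra at 0.31, Thy1 at 0.04 and Dpt at -0.31, while Pi16 had 3 and 4 counts. Col1a1 gave 8206 and 6309 CPM of the osteoblast sums. Summed levels were 7.29 and 4.89 CPM for endothelium, 1.59 and 2.24 for skeletal muscle, 0.61 and 1.14 for neutrophils and 0.07 and 0.11 for red cells. Among these, Mpo, Elane, S100a9 and Retnlg of neutrophils, Ckm and Myod1 of muscle and the haemoglobin genes were listed at 0 in both libraries. As for Slc30a1 and Slc30a4, these zeros are not read as absence. S100a8, also of neutrophils, was the only marker of these lists called, higher at 15 and 31 counts (log2 1.16). Of all genes tested, 0.954% were higher. Sparcl1 message itself was at 289 and 208 counts (log2 -0.36, interval -0.62 to -0.10), which does not measure the added protein. In such bulk libraries a change in the number of cells of a type and a change of message per cell cannot be told apart. The part of cell makeup in the metallothionein and Slc39a4 ratios was not tested.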

How the data were processed

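RNA of primary mouse chondrocytes was measured in 2 libraries, 1 per group. The deposited table holds whole-number counts per gene symbol, and its columns were matched to samples by title. Trimmomatic, FastQC, STAR and HTSeq with build mm10 are named in the submitters' processing notes. Versions, gene annotation, strand setting and the handling of reads with several matches are not given in the sources used here, and they decide how reads of similar or overlapping genes were kept. Library sizes were scaled by TMM factors (0.988 for PBS, 1.01 for Sparcl1) from edgeR 4.0.16 in R 4.3.3. Ratios and intervals were computed in Python 3.11.15 with scipy 1.17.1 and pandas 2.3.3, and plots with matplotlib 3.10.9. No test across libraries was possible with 1 per group, so no p-value is given. PCR reads without molecular identifiers are not independent molecules, and intervals cover counting error only. A gene at 0 in both libraries has no ratio, and its zeros are not read as absence.

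Positions and lengths came from GENCODE M21 (GRCm38, the assembly that mm10 names), matched by symbol for 21900 genes (99.6%). Promoters came from the RefSeq table on GRCm38.p6. The members, the gene lists and the alternatives were chosen with earlier results of these data known. All members and all ZIP, ZnT, metallothionein and protease list genes were named, and of other lists the called genes, the highest, the lowest and the 2 with the most counts, unless stated. The result of 1 further marker list is not reported here. The steps were tested on data simulated from the libraries with counting error only, which cannot speak to variation between cultures. Alternatives were total counts, DESeq2 1.42.0 and upper-quartile scaling, a prior count of 2, other count minimums and fold sizes, scaling without predicted and clone names, other gene lengths, and wider intervals that assume variation between cultures.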

Additional observations from a re-analysis of the deposited data

How the results depend on the processing

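Under 3 other scalings, a prior count of 2 and scaling without predicted and clone names, all 40 alternative values of the 8 members' log2 ratios stayed within the counting interval of the reported value. The count of higher members stayed at 2 under those settings (0.834% to 1.06% of all genes higher). So did the count of higher genes among all metallothionein, ZIP, ZnT and Mtf1 genes. Both counts were also 2 without a count minimum (1.25% of all genes) and with at least 100 summed counts (0.168%). Both stayed at 2 with intervals widened by an assumed coefficient of variation of 0.1 (0.909%) or 0.2 (0.631%). Both were 3 with a 1.5-fold size (2.32%) and 0 with a 3-fold size (0.33%), by which fewer genes pass. No member was lower under any of these, beside 0.27% to 2.35% of all genes. By the lengths of the 2 printed transcripts, an alternative added after the data were seen, the log2 ratio of Mt2 over Mt1 level was -0.60 with PBS and -0.15 with Sparcl1, in place of 0.38 and 0.83. With the longest transcript as length, 14 of 16 member levels moved past their counting interval. The protease list's median was 0.07 with total counts in place of 0.04. With at least 100 summed counts neither Il6 nor Zbtb16 was tested. No paired analysis was possible because each group had 1 library, and for the same reason no library could be left out. Counting depth limits Slc39a4 and Slc39a8 most.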

Other observations

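Genes of iron and copper handling, metals whose transport overlaps with that of zinc, held no call among 18 tested genes. Of all genes tested, 0.954% were higher and 0.946% lower. The median log2 ratio of the 18 was 0.12. Ratios were above 1 for 10 of the 18, beside 6608 of 13317 over all genes tested. With total counts as library sizes they were above 1 for 12 of the 18. The ferritin chain genes Fth1 and Ftl1, which store iron, had the most counts, with Fth1 at 149578 and 164681 (log2 0.26, interval 0.25 to 0.27) and Ftl1 at 58442 and 61993 (0.20). The copper pump gene Atp7b was highest at 0.95, from 9 and 16 counts with an interval of -0.32 to 2.31, and the metalloreductase gene Steap3 was lowest at -0.19. Hamp, the gene of the iron hormone hepcidin, was listed at 0.

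Genes of heat shock and heavy-metal stress, which often accompany metallothionein induction, had ratios above 1 for all 11 tested. Over all genes tested, 6608 of 13317 had ratios above 1. None of the 11 was called, beside 0.954% higher and 0.946% lower of all genes tested. Intervals lay above 0 for 7 of the 11 tested, while those of Dnajb1, Hsf1, Hspa1a and Slc7a11 included 0. The median log2 ratio of the list was 0.21. The haem oxygenase gene Hmox1 (8999 and 10385 counts) was at 0.32 and the thioredoxin reductase gene Txnrd1 (5090 and 5581) at 0.25. The heat shock gene Hspa1b was highest at 0.55 with 370 and 498 counts, and the co-chaperone gene Dnajb1 was lowest at 0.06. Hspa1b and Hspa1a (0.07, from 104 and 101 counts) are near-identical copies, so counting may have split or lost their reads.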
